A study of Mus musculus with 2 samples.

Results

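The genes described here are 33 genes of cholesterol and fatty acid synthesis, of the 32285 genes listed for each library of mouse cornea and limbus. They were chosen by name: 7 genes of the mevalonate steps, 11 of the squalene and sterol steps, 5 regulators or carriers of sterols and their synthesis, and 10 of fatty acid synthesis. They were followed in 2 single-cell RNA libraries, a wild-type library and a library labelled Pax6 +/-, for a defect in 1 copy of the transcription factor gene Pax6. The latter is called the labelled heterozygote, and its cells het-labelled. The anterior segment had been freed of lens, retina, iris and most of the conjunctiva before digestion. The series text names 2 mice of each genotype, but there is 1 library per genotype, and whether mice were pooled is not given. The Pax6 allele, age, strain and sex are not given either. No difference described has a replicate check, and no test was made. Every interval is an exact 95% interval of a ratio of 2 counts, which covers counting error only.

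Cholesterol is built from acetyl-CoA through mevalonate and isoprenoid units to squalene, which is closed into lanosterol and trimmed to cholesterol. SREBP-2, the product of Srebf2, switches on nearly every gene of that route when sterols in the endoplasmic reticulum run low, and SREBP-1c, from Srebf1, does the same for fatty acid synthesis, while the Insig proteins hold both factors back when sterols are plentiful. In a stratified epithelium such as that of the cornea, basal cells express Krt14, corneal-type cells express Krt12, limbal basal cells express Gpha2, and Krt13 and Krt4 mark superficial and conjunctival-type cells.

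Cells were kept at 500 or more genes, 1000 or more UMIs and at most 20% mitochondrial UMIs. This left 10154 wild-type and 9542 het-labelled cells, with medians of 10218.5 and 12537 UMIs. The libraries shared 40 cell barcodes, 33 of them among the kept cells. In the wild-type library 9603 kept cells had Xist RNA but none from Y-linked genes, and 0 had the reverse. In the het-labelled library these numbers were 4409 and 3759, so it held cells of both sexes and the wild-type library did not, and sex and genotype cannot be told apart across whole libraries. A level is given in CPM, the UMIs of a gene per 1000000 UMIs summed over a class of cells without mitochondrial genes. A gene is called higher or lower where it had a mean of at least 10 CPM over the groups compared and differed at least 2-fold. Pax6 RNA did not go down with the label: epithelial cells, defined next, had 372 CPM of it in the wild-type library and 743 CPM in that labelled Pax6 +/-, a ratio of 2.00 (interval 1.98 to 2.02). Since the allele is not given, this level does not check the genotype, and every direction is that of the library as labelled.

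Epithelial cells, taken as cells with Krt5, Krt14 and Krt15 together at 30 or more per 10000 UMIs, numbered 8552 in the wild type and 6796 in the labelled heterozygote. In them the 33 genes summed to 3548 CPM in the wild type and 1921 CPM in the labelled heterozygote, a ratio of 0.541. The median single cell had 27.3 UMIs of these genes per 10000 in the wild type, with quartiles of 18.7 and 40.6, and 10.7 in the labelled heterozygote, with quartiles of 6.91 and 19.7. Of the 32 genes with enough UMIs, 12 were lower and 1 was higher in the labelled heterozygote. Over all 8559 genes tested, 5.83% were lower and 12.7% were higher. The median log2 ratio was -0.74 for the 32 genes and 0.18 for all genes tested. Without epithelial cells that had 2 or more vessel, mural or immune markers, which left 6155 wild-type and 3324 het-labelled cells, the sums were 3879 and 1539 CPM and 16 of 32 genes were lower, beside 6.24% of genes tested. With each cell weighted equally 9 of 32 were lower, beside 5.77%. Krt12 itself went from 29620 to 1769 CPM and the conjunctival-type keratin Krt4 from 54.6 to 896 CPM, so the mix of epithelial cells differed between the libraries at the same time.

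**Figure D1:**
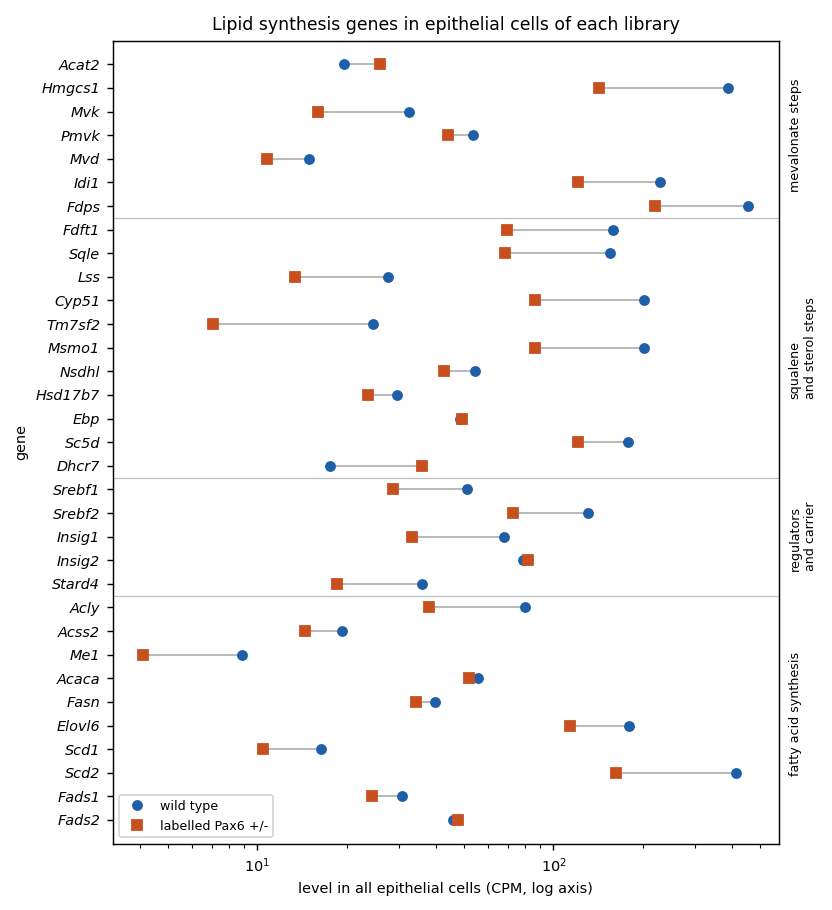
Level of each of the 33 genes in all epithelial cells of the wild-type library (circles) and the library labelled Pax6 +/- (squares), in CPM on a log axis, grouped by role. Most squares lie to the left of their circles, from Hmgcs1 (389.8 and 143 CPM) to Tm7sf2 (24.6 and 7.06 CPM), while Dhcr7 lies to the right (17.6 and 36.0 CPM).

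Among the mevalonate steps, 3 of 7 genes were lower in het-labelled epithelium. Hmgcs1, which makes HMG-CoA, had 389.8 CPM in the wild type and 143 CPM in the labelled heterozygote, a ratio of 0.367 (interval 0.360 to 0.374). Fdps, which makes farnesyl diphosphate, had 455.5 and 219.8 CPM, and mevalonate kinase, Mvk, had 32.5 and 16.1 CPM. The step that makes HMG-CoA thus had the lowest ratio of these genes, and the ratios of Fdps and Mvk lay just below 0.5 and passed it with each cell weighted equally (0.509 and 0.518). Idi1, the isopentenyl diphosphate isomerase, had 229.3 and 121.2 CPM and stayed just short of the 2-fold line at a ratio of 0.529. Pmvk and Mvd, the later steps from mevalonate, had ratios of 0.825 and 0.723, and Acat2, which joins acetyl-CoA units, had a ratio of 1.32.

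Of the squalene and sterol steps, 6 of 11 were lower. Fdft1, squalene synthase, had 159 and 69.6 CPM, and Sqle, squalene epoxidase, had 154.8 and 68.7 CPM. Lss, which closes lanosterol, had 27.5 and 13.4 CPM. Cyp51, the lanosterol demethylase, had 201.8 and 86.4 CPM, and Msmo1, the methylsterol oxidase, had 201.8 and 86.9 CPM. Fdft1, Sqle, Lss, Cyp51 and Msmo1 had ratios between 0.428 and 0.488. Without cells with 2 or more vessel, mural or immune markers their ratios lay between 0.264 and 0.300. Fdps went to 0.271 under the same restriction. The sterol reductase gene Tm7sf2 had 24.6 and 7.06 CPM, a ratio of 0.287 (interval 0.264 to 0.311), the lowest of the 32 genes. The steps that follow differed less: Nsdhl, Hsd17b7 and Sc5d had ratios of 0.783, 0.800 and 0.679, and Ebp had 48.2 and 49.0 CPM. Dhcr7, the last reductase before cholesterol, went the other way, from 17.6 to 36.0 CPM, a ratio of 2.05 (interval 1.94 to 2.16). That call was lost when the libraries were scaled by TMM, a trimmed mean of gene ratios (1.63), or by the median of gene ratios (1.60), when cells with 2 or more vessel, mural or immune markers were left out (1.56), when Krt5, Krt14 and Krt15 together had to reach 60 per 10000 (1.87), and narrowly with het-labelled cells that had Y-linked UMIs and no Xist (1.97).

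Among the regulators, only Insig1, which is itself a sterol-responsive gene, was lower, with 68.2 and 33.3 CPM, a call that was lost with each cell weighted equally (0.527) and with het-labelled cells that had Y-linked UMIs and no Xist (0.506). Its relative Insig2 had 79.1 and 82.1 CPM. Srebf2 had 130.6 and 73.0 CPM and Srebf1 had 51.0 and 28.8 CPM, ratios of 0.559 and 0.564. The sterol carrier gene Stard4 had 36.1 and 18.6 CPM, a ratio of 0.515. In fatty acid synthesis 2 of the 9 genes with enough UMIs were lower: Scd2, a stearoyl-CoA desaturase, with 414.5 and 162.2 CPM, and Acly, which supplies cytosolic acetyl-CoA, with 80.1 and 37.9 CPM. The committed enzymes Acaca and Fasn had ratios of 0.929 and 0.863, and the elongase Elovl6 had a ratio of 0.632. Acss2 and Scd1 had ratios of 0.749 and 0.636, and the desaturases Fads1 and Fads2 had ratios of 0.788 and 1.04. Me1, malic enzyme, was below the level filter at 8.89 and 4.11 CPM. Acaca and Fasn thus differed little between the libraries, while Acly and Scd2 were lower.

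These genes share promoter features that the choice by name did not use. RefSeq promoter windows of build GRCm38.p6, running from 250 bases before to 50 after a gene's start, were found for 26 of the 33 genes. The CCAAT box (letters CCAAT, either strand), which binds NF-Y, stood in 22 of the 26, or 84.6%, against 41.1% of 27025 genes. The GC box (letters GGGCGG, either strand), which binds Sp1, stood in 22 of the 26, against 38.2% of genes. Both stood in 20 of the 26, or 76.9%, against 15.8% of genes. The 27025 genes were not limited to those expressed in these cells, and no share among expressed genes was taken. A CCAAT box and a GC box can share letters. The classical sterol regulatory element core TCACNCCAC (either strand) stood in the window of Hmgcs1 alone, and in 1.44% of genes. A match describes letters only and shows no binding in these cells. The 4 stretches below, free of exons, are shown because they belong to 4 of the genes that were lower in both the whole epithelium and its Krt12-high cells, and capitals mark the matches. ATTGG and CCGCCC are the same boxes read on the other strand. They lie at chr13:119690104-119690342 (plus strand), chr5:28071173-28071301 (plus strand), chr5:114444086-114444268 (plus strand) and chr10:76531429-76531557 (plus strand), each upstream of its gene's start.
Hmgcs1: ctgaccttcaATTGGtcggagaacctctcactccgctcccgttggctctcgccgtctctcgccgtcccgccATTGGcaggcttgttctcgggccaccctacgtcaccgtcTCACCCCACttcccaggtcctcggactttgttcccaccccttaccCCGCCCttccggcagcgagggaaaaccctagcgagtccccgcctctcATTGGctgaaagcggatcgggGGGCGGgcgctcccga
Insig1: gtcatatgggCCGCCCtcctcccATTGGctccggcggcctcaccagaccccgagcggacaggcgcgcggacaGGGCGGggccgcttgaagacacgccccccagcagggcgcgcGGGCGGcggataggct
Mvk: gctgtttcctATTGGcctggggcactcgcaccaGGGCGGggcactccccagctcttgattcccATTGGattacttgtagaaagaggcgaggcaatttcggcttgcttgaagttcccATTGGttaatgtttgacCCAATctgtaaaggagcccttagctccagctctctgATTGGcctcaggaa
Lss: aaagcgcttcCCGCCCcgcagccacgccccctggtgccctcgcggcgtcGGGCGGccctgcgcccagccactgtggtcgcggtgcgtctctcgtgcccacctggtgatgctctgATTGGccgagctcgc
The Hmgcs1 stretch holds 3 CCAAT boxes, 2 GC boxes and the sterol element TCACCCCAC between them. The Insig1 stretch holds 1 CCAAT box and 3 GC boxes, and that of Mvk 5 CCAAT boxes and 1 GC box. That of Lss holds 1 CCAAT box and 2 GC boxes. Cyp51, also lower in both, is not shown: its exon-free stretch holds 1 GC box and no CCAAT box. Tm7sf2, lower in both as well, had both boxes in its full window and is not shown because its exon-free stretch was too short. Dhcr7, called higher in the whole epithelium, had both boxes in its full window, so they were not limited to lower genes.

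To see whether the lower level went with the loss of corneal-type cells, epithelial cells were split by Krt12. Krt12-high cells, at 100 or more Krt12 UMIs per 10000, made up 93.3% of wild-type epithelial cells (7980 cells) and 5.84% of het-labelled ones (397 cells). Krt12-low cells, under 20, made up 2.06% (176 cells) and 91.5% (6215 cells). In the wild type 97.2% of the UMIs of the 33 genes came from Krt12-high cells, and in the labelled heterozygote 91.1% came from Krt12-low cells. The whole-epithelium comparison is thus very nearly wild-type Krt12-high cells against het-labelled Krt12-low cells.

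Within Krt12-high cells the 33 genes summed to 3618 CPM in the wild type and 1898 CPM in the labelled heterozygote. Of 32 genes with enough UMIs, 13 were lower and 0 were higher. Over all 8191 genes tested, 4.61% were lower and 7.56% were higher. The median log2 ratio of the 32 genes was -0.87, against 0.02 for all genes. The difference between the libraries was therefore present among cells that still had Krt12 (30860 and 22910 CPM). In UMIs pooled over cells, its size was close to that in the whole epithelium (3548 and 1921 CPM). The whole-epithelium ratio of 0.541 became 0.611 with het-labelled cells reweighted to the wild-type mix of Krt12 ranges, as described below. That closeness holds for pooled UMIs only. Medians over single cells are not given for this class, so the size of the difference in its median cell is not described. The het-labelled Krt12-high cells were fewer and deeper, with a median of 17649 UMIs against 11576, and they were not identical to wild-type cells in other respects. Krt14 was at 842 and 3190 CPM in them, the superficial corneal gene Slurp1 at 2924 and 371 CPM, and the keratocyte collagen gene Col1a1 at 11.8 and 206 CPM. The part of these differences in the result was not tested.

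In Krt12-high cells 4 of 7 mevalonate genes were lower. Hmgcs1 had 397 and 140.3 CPM, a ratio of 0.353 (interval 0.331 to 0.376). Idi1 had 234.8 and 75.4 CPM, a ratio of 0.321 (interval 0.294 to 0.350), and so passed the 2-fold line that it had missed in the whole epithelium. Fdps had 465.6 and 187.9 CPM, a ratio of 0.404. Mvk was the other gene called (0.471), a call lost with Krt12 at 200 or more (0.606). Of the sterol steps 5 of 11 were lower. Sqle had 158.9 and 56.9 CPM, a ratio of 0.358 (interval 0.324 to 0.396). Cyp51 had 206.8 and 79.9 CPM and Fdft1 had 162.6 and 71.3 CPM. Lss and Tm7sf2 had ratios of 0.273 and 0.245 on 54 and 44 het-labelled UMIs. Msmo1, lower in the whole epithelium, had 206.5 and 116 CPM here and was not called at 0.562.

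Among the regulators of Krt12-high cells Insig1 had 69.4 and 32.6 CPM and Stard4 had 36.8 and 13.4 CPM, and both were called. With only the 55 het-labelled cells that had Y-linked UMIs and no Xist, 10 of 32 genes were lower, beside 6.44% of genes tested. The calls of Mvk (0.575), Fdft1 (0.527), Cyp51 (0.511), Insig1 (0.671) and Acss2 (0.510) were lost there, and the ratios of Lss and Scd1 went to 0.473 and 0.486. The call of Insig1 was also lost when each cell was weighted equally (0.501). Srebf1 and Srebf2, the genes of the SREBP factors, had ratios of 0.692 and 0.719. In fatty acid synthesis Scd1 had 17.1 and 5.12 CPM and Acss2, which makes acetyl-CoA from acetate, had 19.6 and 8.398 CPM, and both were called, on 36 and 59 het-labelled UMIs. With Krt12 at 200 or more Acss2 was at 0.519 and not called. Scd2 and Acly, called in the whole epithelium, had ratios of 0.526 and 0.524. Fads1 and Fads2, the desaturases of polyunsaturated fatty acids, had ratios of 1.28 each.

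Within all Krt12-low cells pooled the libraries lay close to each other, with 1837 CPM in the wild type and 1941 CPM in the labelled heterozygote over the 33 genes. In Krt12-low cells that had Xist but no Y-linked UMI (170 and 2978 cells) the sums were 1826 and 2175 CPM. The 2368 het-labelled ones with the reverse pattern had 1716 CPM. Of 30 genes with enough UMIs, 1 was lower (Me1) and 0 were higher, beside 3.16% and 5.94% of 8634 genes. The median log2 ratio was 0.19 for the 30 genes and 0.12 for all genes. Without cells with 2 or more vessel, mural or immune markers (119 and 3067 cells left) the sums were 1885 and 1523 CPM, and the median of 29 genes turned to -0.21, against 0.16 for all genes. Idi1 had 101.8 and 126.6 CPM, a ratio of 1.24 (interval 1.08 to 1.44), and Sqle had 54.5 and 70.7 CPM, a ratio of 1.30 (interval 1.07 to 1.59), but under that restriction both lay below 1, at 0.755 and 0.822. With each cell weighted equally they were 1.54 and 1.60, and the median of 29 genes was 0.30, against 0.14 for all genes. Hmgcs1 kept a ratio below 1, with 207 and 144.8 CPM and a ratio of 0.699 (interval 0.633 to 0.773). Scd1 had 1 UMI in the wild type and 1033 in the labelled heterozygote, a ratio of 21.8 whose interval runs from 3.90 to 859.9. The wild-type side of this comparison rests on 176 cells.

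**Figure D2:**
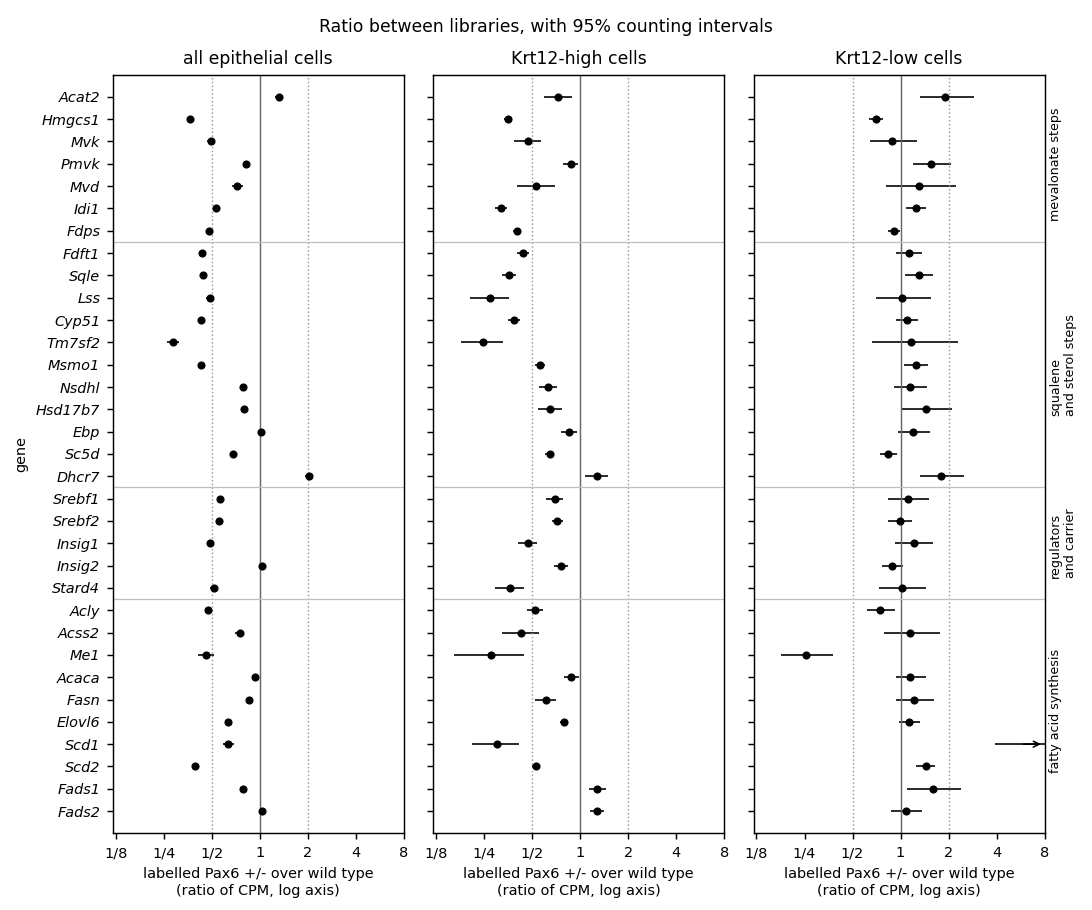
Ratio of the het-labelled to the wild-type level of each gene, on a log axis, with exact 95% counting intervals, in all epithelial cells, Krt12-high cells and Krt12-low cells. Dotted lines mark 2-fold, and the arrow marks Scd1 in Krt12-low cells, at 21.8 beyond the axis. In the middle panel 13 called genes lie left of the dotted line, and in the right panel Me1 (0.255) does.

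The similar sums of all Krt12-low cells combined opposite differences once they were split by Krt14 at the wild-type epithelial median of 2.40 per 10000. This cut took in 87.6% of het-labelled epithelial cells, so Krt14-high does not stand for basal-type there. Among het-labelled Krt12-low cells, those with Krt4 at 5 or more per 10000 held 110035 UMIs of the 33 genes. All Krt14-low ones held 29796, so the Krt14-high class included cells with Krt4. In Krt14-high, Krt12-low cells (154 wild-type and 5445 het-labelled cells) the 33 genes summed to 1395 and 1853 CPM. There 4 of 28 genes were higher, beside 6.18% of genes tested: Sqle, Hsd17b7, Acat2 and Insig1, with ratios of 2.10, 2.31, 2.50 and 2.44 on 17 to 51 wild-type UMIs. In Krt14-low, Krt12-low cells (22 and 770 cells) the sums were 4447 and 2563 CPM. There 10 of 30 genes were lower, beside 6.03% of genes tested, among them Fdps with 881.6 and 343.4 CPM, Idi1 with 337.2 and 149.8 CPM and Stard4 with 66.7 and 19.8 CPM. With 22 wild-type cells, these latter values can rest on few cells.

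Over 5 ranges of Krt12 the wild-type sum of the 33 genes was higher with more Krt12, from 1837 CPM under 20, through 2286 CPM at 20 to 100, 2505 CPM at 100 to 200 and 2867 CPM at 200 to 300, to 4573 CPM at 300 and more. The het-labelled sums in the same order were 1941, 1367, 1517, 2072 and 2575 CPM. In each range from 20 upward the het-labelled value was the lower, with ratios of 0.598, 0.606, 0.723 and 0.563, and under 20 the ratio was 1.06. The number of genes called lower was 9 of 29 at 20 to 100, 6 of 28 at 100 to 200, 4 of 31 at 200 to 300 and 11 of 32 at 300 and more, beside 5.38%, 5.08%, 5.39% and 5.57% of all genes tested. Hmgcs1 and Stard4 had ratios of 0.5 or less in all 4 of these ranges, from 0.372 to 0.422 and from 0.269 to 0.490. Depth did not run level: at 20 to 100 the median cell had 5206.5 UMIs in the wild type and 16039 in the labelled heterozygote. Free RNA was also unequal, since Krt12 stood at 992 CPM in wild-type keratocytes and 15.1 CPM in het-labelled ones. The part of free RNA in placing cells in these ranges was not tested.

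**Figure D3:**
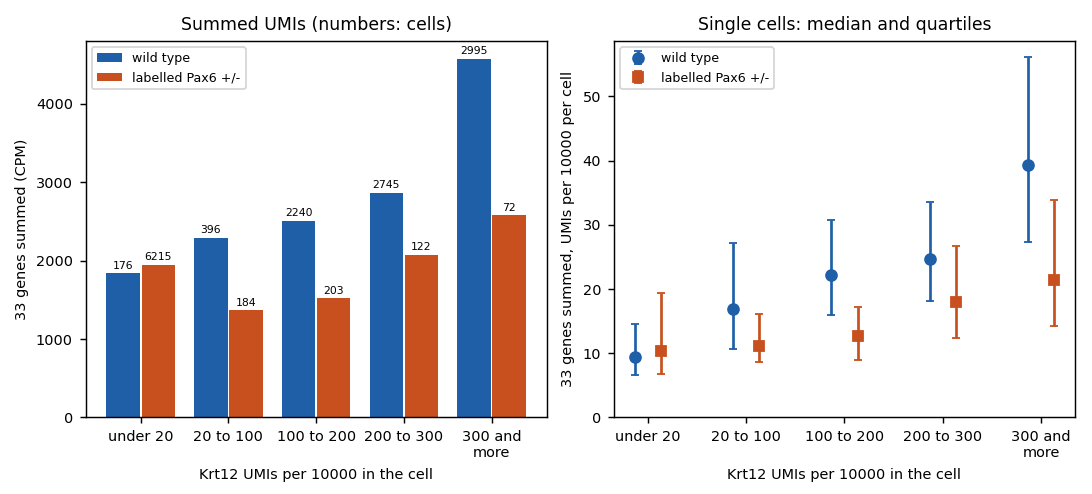
The 33 genes summed, by range of Krt12 in the cell and by library: left, CPM of summed UMIs with the number of cells above each bar, right, the median (points) and quartiles (bars) over single cells. The wild-type bars go from 1837 to 4573 CPM, and the het-labelled bars are the lower ones in each range from 20 upward.

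Giving both libraries the same mix of Krt12 ranges had opposite results depending on whose mix was used. With wild-type cells reweighted to the het-labelled mix, the 33 genes summed to 1932 CPM against 1921 CPM in the labelled heterozygote, a ratio of 0.994, and 1 of 30 genes was lower, beside 3.07% of genes tested. With het-labelled cells reweighted to the wild-type mix, the sums were 3548 and 2169 CPM, a ratio of 0.611, and 8 of 32 genes were lower, beside 4.72% of genes tested. The first leans on the Krt12-low range, where 176 wild-type cells stand for the library, and the second on the Krt12-high ranges, where 397 het-labelled cells do. The lower sum in het-labelled epithelium thus went with the shift to Krt12-low cells, whose pooled wild-type level was itself low. A lower level was also measured within the Krt12-high cells that remained. The wild-type Krt12-low level was not uniform: its few Krt14-low cells, described above, had a high sum. Krt12-low cells were also split by the limbal gene Gpha2, as below. In Gpha2-negative ones (41 wild-type and 3450 het-labelled cells) the 33 genes summed to 3639 CPM in the wild type and 2412 CPM in the labelled heterozygote. In Gpha2-positive ones (135 and 2765 cells) the sums were 1164 and 1298 CPM. The mix of Gpha2 was not matched, and its part in the ratio of 0.994 was not tested.

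Inside the wild-type library, 11 of 32 genes were lower in Krt12-low than in Krt12-high cells and 0 were higher, beside 4.22% lower and 8.16% higher among all genes, with medians of -0.88 and 0.06. Among these 32 genes Scd2 had the lowest ratio but for Tm7sf2, with 426.4 CPM in Krt12-high and 110.5 CPM in Krt12-low cells, a ratio of 0.259. Msmo1 had 206.5 and 69.2 CPM and Sqle 158.9 and 54.5 CPM. Inside the het-labelled library 0 of 29 genes were called in either direction, beside 3.51% lower and 5.76% higher among all genes, with medians of 0.08 and 0.17. The step from Krt12-low to Krt12-high cells in the wild type was thus not seen between these het-labelled classes as pooled. Their sums were 1941 CPM in Krt12-low and 1898 CPM in Krt12-high cells. Without cells with 2 or more vessel, mural or immune markers these het-labelled sums were 1523 and 1874 CPM. The het-labelled sum also rose over the Krt12 ranges from 20 upward, so the pooled classes do not show that a rise was absent. The difference between the libraries was not tested.

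A split by Krt13 showed a gradient in both libraries. Krt13-positive epithelial cells (10 or more per 10000) numbered 641 in the wild type and 1170 in the labelled heterozygote. In the wild type the 33 genes summed to 5974 CPM in Krt13-positive and 3149 CPM in Krt13-negative cells, with 16 of 33 higher and 2 lower, beside 6.57% and 21.6% of all genes. In the labelled heterozygote the sums were 3592 and 1346 CPM, with 23 of 32 higher and 2 lower, beside 6.41% and 11.6%. Fdps had 1092 CPM in wild-type Krt13-positive and 350.7 CPM in Krt13-negative cells, and 577 and 96.8 CPM in the labelled heterozygote. Insig1 had 183 and 49.3 CPM in the wild type and 68.3 and 21.3 CPM in the labelled heterozygote. Acss2 had 58.2 and 12.95 CPM in the wild type and 40.5 and 5.54 CPM in the labelled heterozygote. Sterol synthesis genes were thus high in Krt13-positive cells of both libraries, and lower in the labelled heterozygote on either side of the split.

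Between the libraries, 6 of 32 genes were lower in Krt13-positive cells and 16 of 30 in Krt13-negative cells, beside 6.31% and 6.55% of all genes. Krt4-positive cells (5 or more per 10000) were 106 in the wild type and 1904 in the labelled heterozygote, and there the sums were 4717 and 3075 CPM, with 4 of 31 genes lower beside 4.28%. Krt4-negative cells had 3524 and 1272 CPM, with 19 of 31 genes lower beside 7.4%. Krt4-positive cells were 28.0% of het-labelled epithelial cells and held 36.0% of epithelial UMIs without mitochondrial genes. They gave 57.6% of the epithelial UMIs of the 33 genes in that library. In the wild type they were 1.24% of cells, held 2.00% of such UMIs and gave 2.66% of those of the 33 genes. Het-labelled epithelium thus drew most of its lipid synthesis transcripts from cells with Krt4, a keratin of conjunctival-type epithelium. The other conjunctival-type markers in that epithelium were Krt7 at 3.42 and 228 CPM, Krt8 at 1.36 and 33.4 CPM, Krt19 at 30.3 and 339 CPM, Krt13 at 579 and 1480 CPM and Muc4 at 390.0 and 230.0 CPM, so 5 of the 6 markers listed for that type were more than 2-fold higher and Muc4 was not. Lipid-secreting gland markers were near 0 in epithelium of both libraries: Mc5r, Awat2, Far2, Pparg and Plin1 reached at most 1.21 CPM.

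Gpha2-positive cells (2 or more per 10000), of limbal type, had the lower level in each library. They numbered 596 in the wild type and 2817 in the labelled heterozygote. The 33 genes summed to 1671 CPM in wild-type Gpha2-positive cells against 3663 CPM in negative ones, with 20 of 32 genes lower and 0 higher, beside 3.08% and 4.07% of all genes. In the labelled heterozygote the sums were 1298 and 2320 CPM, with 11 of 30 lower and 2 higher, beside 4.37% and 3.21%. Between the libraries, 1 of 27 genes was lower in Gpha2-positive cells beside 4.68%. Sqle, for example, had 35.6 and 31.7 CPM in Gpha2-positive cells of the wild type and labelled heterozygote, against 162.1 and 92.3 CPM in Gpha2-negative cells. The sum in Gpha2-positive cells was thus also lower in the labelled heterozygote, by less than in Gpha2-negative cells. The interval of the ratio lay below 1 for 15 genes, above 1 for 6 and held 1 for 12. The share of all genes with such intervals is not given, so these counts do not set the 33 genes apart from the rest. The Gpha2-positive share of the epithelium was 6.97% in the wild type and 41.5% in the labelled heterozygote.

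Split by Krt14 alone, Krt14-high cells had 2745 and 1830 CPM in the wild type and labelled heterozygote, with 3 of 32 genes lower beside 5.49%. Krt14-low cells had 4371 and 2565 CPM, with 10 of 32 lower beside 6.73%. Within Krt12-high cells both Krt14 strata differed: Krt14-high cells (3800 and 347 cells) had 2832 and 1770 CPM with 9 of 30 genes lower beside 4.07%, and Krt14-low cells (4180 and 50 cells) had 4373 and 2700 CPM with 7 of 32 lower beside 7.45%. Hmgcs1 was lower in both, with 336.5 and 140.2 CPM in the first and 455.9 and 141.5 CPM in the second. Idi1, Sqle, Tm7sf2, Stard4 and Scd1 were also called in both strata. In the Krt14-low stratum Tm7sf2, Stard4 and Scd1 rested on 12, 12 and 4 het-labelled UMIs, and their intervals ran up to 0.605, 0.510 and 0.637.

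Fads1 and Fads2, the delta-5 and delta-6 desaturases that act on dietary polyunsaturated fatty acids, ran against most of the other genes along the Krt13, Krt4 and Gpha2 splits. Fads1 had 2.99 CPM in wild-type Krt13-positive and 35.4 CPM in Krt13-negative cells, and 6.65 and 30.4 CPM in the labelled heterozygote. Fads2 had 9.85 and 51.7 CPM in the wild type and 15.9 and 58.3 CPM in the labelled heterozygote. These were the 2 genes called lower in Krt13-positive cells of each library. In het-labelled Gpha2-positive cells they were the 2 genes called higher, with 35.9 CPM against 16.9 CPM for Fads1 and 71.6 CPM against 32.0 CPM for Fads2. Across the libraries their ratios in the whole epithelium were 0.788 and 1.04.

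**Figure D4:**
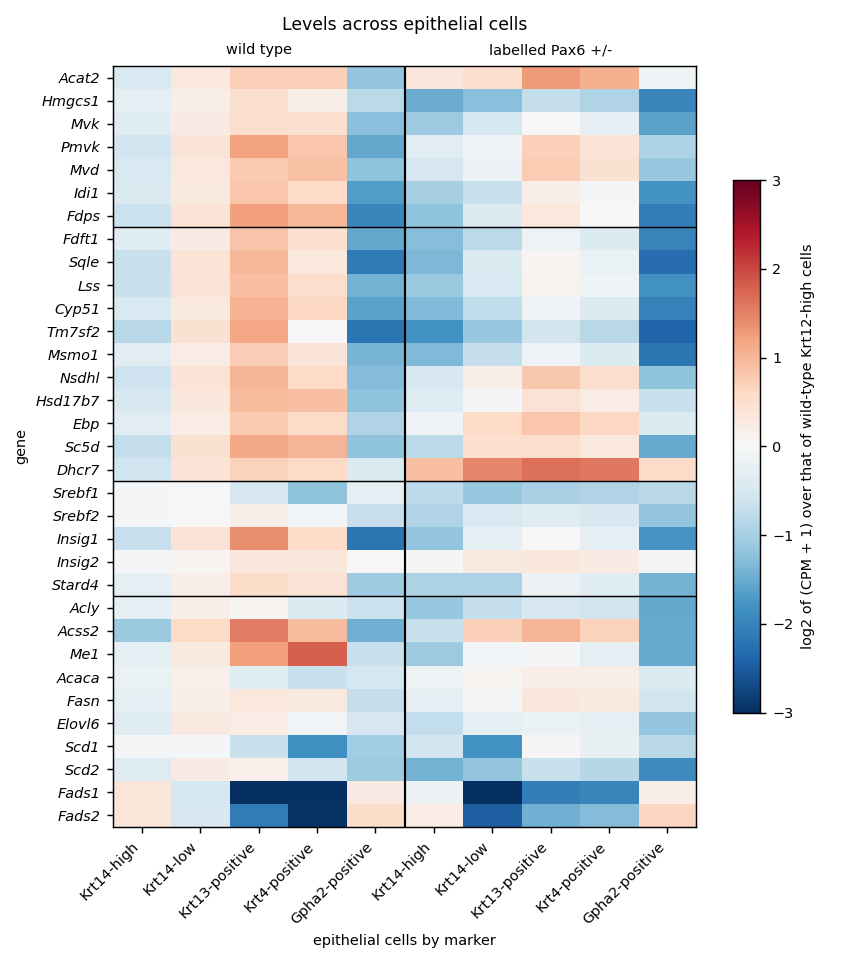
Level of each gene in epithelial cells split by Krt14, Krt13, Krt4 or Gpha2, as the log2 of CPM plus 1 relative to wild-type Krt12-high cells (red higher, blue lower), wild type left of the line and labelled heterozygote right. Krt13-positive columns are the reddest for the sterol steps and Gpha2-positive columns the bluest, and Fads1 and Fads2 at the foot run the other way.

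Within the het-labelled library, the 3376 epithelial cells that had Xist but lacked Y-linked UMIs had 2123 CPM of the 33 genes, and the 2485 with the reverse pattern had 1715 CPM. Against the wild-type cells of the Xist pattern (3548 CPM), the former were lower in 7 of 32 genes, beside 5.02% of genes tested, with medians of -0.60 and 0.22. The 5 genes whose call was lost there were Fdps, Sqle, Lss, Mvk and Acly, with ratios from 0.514 to 0.554. In Krt12-high cells the same restriction left 14 of 32 genes lower, beside 4.94% of genes tested, with 3618 CPM in the wild type and 1891 CPM in 304 het-labelled cells. The median log2 ratio there was -0.80, against -0.87 over all Krt12-high cells.

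Scaling to the whole UMI total gave all genes a median log2 ratio above 0 in the epithelium. Scaling by TMM shifted every epithelial log2 ratio by -0.33 and turned the split of all genes from 499 lower and 1085 higher to 826 and 608, and the median of gene ratios gave 858 and 588. The count of the 32 genes called lower was then 16 and 18. In Krt12-high cells the splits were 378 lower and 619 higher, 549 and 447, and 541 and 455, with 13, 17 and 16 of the 32 genes lower. The gap between the median of the 32 genes and that of all genes in the whole epithelium was -0.93 as scaled here and -0.91 under either alternative.

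Keratocytes, the stromal fibroblasts of the cornea, numbered 658 in the wild type and 923 in the labelled heterozygote, and carried their defining markers, with Dcn at 34600 and 35480 CPM and Kera at 9285 and 4848 CPM. In them the 33 genes summed to 1369 and 1084 CPM. Of 26 genes with enough UMIs, 3 were lower and 1 was higher in the labelled heterozygote, beside 6.47% and 7.47% of 8630 genes. The median log2 ratio was -0.21, against -0.19 for all genes, so in all keratocytes the median of these genes lay close to that of the rest. Scd2 had 110.6 and 41.5 CPM, a ratio of 0.375 (interval 0.334 to 0.422). Stard4 had 21.6 and 8.24 CPM and Srebf1 had 35.3 and 17.3 CPM. Pmvk was higher, with 10.2 and 21.1 CPM. Hmgcs1 had 128.3 and 82.5 CPM, and Cyp51, Insig1 and Sqle had ratios of 0.873, 0.866 and 1.19. Under TMM the split of all genes in keratocytes moved from 558 lower and 645 higher to 362 and 842, under the median of gene ratios to 361 and 844, and 2 of 28 of these genes were then lower. Restricted to the Xist pattern (615 and 185 cells), 7 of 26 genes were lower, beside 5.84% of genes tested, and the median was -0.59, against -0.14 for all genes.

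Schwann cells, the glia of the corneal nerves, numbered 72 in the wild type and 256 in the labelled heterozygote, with Sox10 at 213.7 and 164.1 CPM and Cdh19 at 1598 and 1498 CPM. The 33 genes summed to 2366 and 1854 CPM. Of 28 genes with enough UMIs, 5 were lower and 1 higher, beside 9.05% and 14.7% of 9154 genes. Those lower were Lss, Msmo1, Sc5d, Stard4 and Acss2, on 4 to 23 wild-type UMIs, and the intervals of Lss, Stard4 and Acss2 took in 1. Msmo1 had 111.7 and 45.4 CPM, a ratio of 0.406 (interval 0.247 to 0.688), and Sc5d had 87.4 and 40.1 CPM, a ratio of 0.458 (interval 0.264 to 0.832). Fads2 was higher, with 34.0 and 82.5 CPM on 7 and 109 UMIs. The desaturase genes had a pattern of their own in these cells. Scd1 had 194.3 and 152 CPM, against 16.5 and 10.5 CPM in epithelium, Fads1 had 102 and 111.9 CPM, and Scd2 had 505.2 and 405.4 CPM. Free epithelial RNA reached these cells unequally, with Krt12 at 2040 CPM in wild-type and 13.6 CPM in het-labelled Schwann cells. Its part in the sums was not tested.

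**Figure D5:**
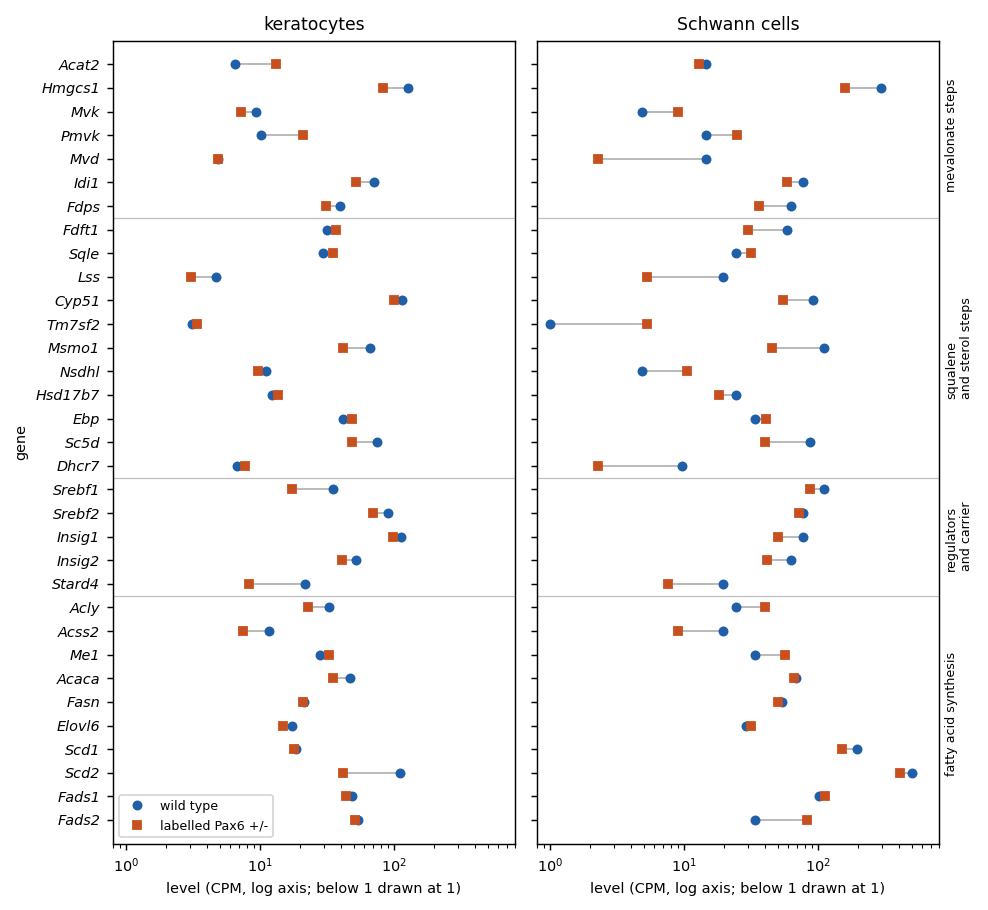
Level of each gene in keratocytes and Schwann cells of the wild-type (circles) and het-labelled (squares) library, in CPM on a log axis with values below 1 drawn at 1. In keratocytes Scd2 (110.6 and 41.5 CPM) is among the genes farthest apart, and in Schwann cells Scd1, Scd2 and Fads1 are high in both libraries.

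Other genes of lipid metabolism, 43 in 7 lists with no gene in common with the 33, were mostly within 2-fold. Of 34 with enough UMIs, 2 were lower and 3 higher in het-labelled epithelium, with a median log2 ratio of 0.29 against 0.18 for all genes tested, each smaller than the TMM shift of -0.33. The 3 genes that process SREBP, Scap, Mbtps1 and Mbtps2, had a median of 0.50 and none was called. Those lower were Plin2, a coat protein of lipid droplets, with 26.0 and 6.10 CPM, and Hacd2, a dehydratase of fatty acid elongation, with 229.5 and 104 CPM. Those higher were Pdss1 of ubiquinone synthesis, with 8.13 and 23.2 CPM, and the elongases Elovl5, with 17.2 and 34.8 CPM, and Elovl7, with 12.2 and 27.8 CPM. In Krt12-high cells 2 of 32 were lower, Plin2 (26.9 and 5.69 CPM) and Mylip (126.7 and 61.9 CPM), a target of the sterol-sensing LXR receptors. Pdss1 and Lpin2 were higher there, with ratios of 2.22 and 2.11.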

How the data were processed

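Single-cell RNA was measured in 1 wild-type and 1 library labelled Pax6 +/- of mouse cornea and limbus. The deposited values are raw UMI counts per gene and barcode from Cell Ranger 8.0.0, per the file headers, on GRCm38, per the submitters' processing notes; the aligner settings are not given in the sources used here. The filtered matrices held 11354 and 10574 barcodes with 124540296 and 131567589 UMIs. Cells were filtered and classed by marker sums, and UMIs were summed per class and divided by the class total without mitochondrial genes (Python 3.11.15, numpy 2.4.6, scipy 1.17.1). Doublets were not called: cells with 2 or more vessel, mural or immune markers, and the 5% of cells with the most UMIs, were left out as alternatives. Keratocytes had Kera, Lum and Dcn at 30 or more, Schwann cells a sum of markers including Sox10 and Cdh19 at 10 or more per 10000 (the rest of that sum is not reported here), each with at least 3 markers of its type detected and epithelial keratins under 30. With 1 library per genotype there was no test. Ratios have exact conditional binomial intervals, checked on simulated data, which cover counting error only. All 33 genes could be named, and of the other lists those at least 2-fold apart with a mean of at least 10 CPM, with the most abundant. Other scalings used edgeR 4.0.16 and DESeq2 1.42.0 factors. Alternatives also changed the level filter, depth, mitochondrial and Krt12 limits, and cell weights; 2 (het-labelled cells at the wild-type mix, and het-labelled cells with Y-linked UMIs only) were chosen after seeing the data. The 33 genes, the lists and the comparisons were chosen with earlier results of these data known.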

Additional observations from a re-analysis of the deposited data

Results flagged for a closer look

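Idi1 and Sqle differed between the libraries in opposite directions in Krt12-high and Krt12-low epithelial cells. The het-labelled over wild-type ratio of Idi1 was 0.321 in Krt12-high and 1.24 in Krt12-low cells, and that of Sqle was 0.358 and 1.30. Without cells with 2 or more vessel, mural or immune markers the Krt12-low ratios were 0.755 and 0.822, so the opposite directions were not seen there, and they were 0.985 for Idi1 with het-labelled cells that had Y-linked UMIs and no Xist, and 0.971 for Sqle with Krt12 under 100. With 1 library per genotype the difference between the cell classes was not tested.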

How the results depend on the processing

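Of 424 values of single-gene ratios under alternatives, 274 stayed within the counting interval, 146 moved by more and 4 changed direction. The alternatives that changed only the level filter could not move a single-gene ratio, and their values are among the 274. The 4 that changed direction were in Krt12-low cells: Idi1 at 0.755 and Sqle at 0.822 without cells with 2 or more vessel, mural or immune markers, Idi1 at 0.985 with het-labelled cells with Y-linked UMIs and no Xist, and Sqle at 0.971 with Krt12 under 100. The count of genes lower in Krt12-high cells (13 of 32) ranged from 10, with het-labelled cells with Y-linked UMIs and no Xist alone, to 17, under TMM or with Krt12 at 50 or more. The count in the whole epithelium was 7 in place of 12 with cells that had Xist but lacked Y-linked UMIs. The count in Krt12-low cells was 0 in place of 1 with at least 20 CPM in either library, with cells weighted equally, without the 5% of cells with the most UMIs, and with Krt12 under 100. In Schwann cells it was 2 with at least 20 CPM in either library and 3 with equal weights, in place of 5. In keratocytes it was 7 in place of 3 with cells of that Xist pattern. Between wild-type Krt12-low and Krt12-high cells it was 5 with Krt12 under 100 and 17 with equal weights, in place of 11. Between the het-labelled classes it was 1 in place of 0 without cells with 2 or more vessel, mural or immune markers. At equal Krt12 mix it was 0 in place of 1 with 3 Krt12 ranges split by Krt14, 8 with het-labelled cells at the wild-type mix, and 7 with that mix over 3 ranges split by Krt14. The cause was not tested in these cases. No paired analysis was possible because each genotype has 1 library, which also leaves no library to leave out in turn. Depth limits genes with few UMIs, such as Lss, Stard4 and Acss2 in Schwann cells and Scd1 in wild-type Krt12-low cells, with 1 UMI.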
